A study of Mus musculus with 6 samples.

Results

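The 7 genes of the Fos and Jun families, Fos, Fosb, Fosl1, Fosl2, Jun, Junb and Jund, were taken by symbol from the 55471 genes counted in the hippocampus of 6 mice, and all 7 were found. RNA-seq compared 3 P300-ifKO mice with 3 Control littermates, each library being the total RNA of the hippocampus of 1 male mouse of the C57BL/6 strain (C57BL/6J in the methods of the study), 3 to 6 months old. P300-ifKO mice carried floxed Ep300, the gene for the acetyltransferase p300, and the Camk2a_creERT2 driver, a Cre recombinase that tamoxifen activates in excitatory neurons of the adult forebrain. Mice of both groups were given 5 doses of tamoxifen into the stomach (20 mg/mL in corn oil). In the labels the Control libraries are described with the name of the driver, although the protocol there calls the Control mice negative for creERT2.

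The model has limits that bear on every value. Recombination was restricted to cells in which the driver is active, so interneurons, glia and vessels kept intact Ep300, and the methods describe the recombined allele as encoding a truncated protein rather than as removing the transcript. Mice were sampled without an inducing stimulus named in the labels, and the levels below are therefore basal levels. In bulk tissue, fewer cells of a type and less RNA per cell cannot be told apart.

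AP-1 is a dimeric transcription factor of the basic leucine zipper class. Jun proteins can pair with each other or with Fos proteins, whereas Fos proteins need a Jun partner to bind DNA, at the sequence TGACTCA or its variants. In the hippocampus, Fos, Fosb and Junb are classic immediate early genes, transcribed within minutes of synaptic activity without new protein synthesis, and Jund is expressed more constantly. p300 and its paralog CBP are coactivators that AP-1 and the factors upstream of it recruit to DNA.

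The promoters are shown because promoter elements are among those through which neuronal activity is known to reach these genes. Windows of 250 bases upstream of the RefSeq start (GRCm38.p6) were found for 6 of the 7 genes, Fosl1 being the exception. Those of Fos, Fosb, Jun and Junb, whose start lay within 30 bases of the GENCODE start, are printed in the direction of transcription. Capitals mark TGACG, the core of the cAMP response element (CRE, TGACGTCA), and in Jun TGACATCA, an element related to both the CRE and the AP-1 site. The motif TATAAA, known as the TATA box and a point of assembly of the transcription machinery, is also in capitals. They lie at chr12:85473640-85473889 on the plus strand (Fos), chr7:19310046-19310295 on the minus strand (Fosb), chr4:95052223-95052472 on the minus strand (Jun) and chr8:84978749-84978998 on the minus strand (Junb).
Fos: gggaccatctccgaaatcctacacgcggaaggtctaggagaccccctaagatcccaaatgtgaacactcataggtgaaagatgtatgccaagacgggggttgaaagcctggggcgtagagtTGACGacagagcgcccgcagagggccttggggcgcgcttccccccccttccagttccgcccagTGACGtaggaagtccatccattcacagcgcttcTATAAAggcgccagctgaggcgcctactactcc
Fosb: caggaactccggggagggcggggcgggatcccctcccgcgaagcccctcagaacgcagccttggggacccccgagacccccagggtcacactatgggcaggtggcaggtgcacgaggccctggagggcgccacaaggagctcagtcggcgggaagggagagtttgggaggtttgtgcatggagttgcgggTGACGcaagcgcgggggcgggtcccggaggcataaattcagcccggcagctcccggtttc
Jun: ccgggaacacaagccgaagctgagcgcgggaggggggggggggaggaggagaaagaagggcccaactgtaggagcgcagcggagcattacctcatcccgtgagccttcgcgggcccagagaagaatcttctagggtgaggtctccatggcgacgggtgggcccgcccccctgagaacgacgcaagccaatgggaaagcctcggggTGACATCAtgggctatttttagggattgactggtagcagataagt
Junb: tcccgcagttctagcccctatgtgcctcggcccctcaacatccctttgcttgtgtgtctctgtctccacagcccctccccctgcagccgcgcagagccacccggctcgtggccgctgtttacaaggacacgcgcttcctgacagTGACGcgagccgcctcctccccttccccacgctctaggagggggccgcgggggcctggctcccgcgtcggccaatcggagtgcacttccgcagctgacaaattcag

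The core TGACG was found in the Fos, Fosb and Junb windows, and in 17.9% of the 32536 windows of this length in the same table, both strands being read. In Fos it occurred 129 to 125 and again 66 to 62 bases before the start, in Fosb 60 to 56 bases and in Junb 106 to 102 bases before it. Among the 6 windows, that of Fos alone held TATAAA, 33 to 28 bases before the start, compared with 12.3% of all windows. The window of Jun held TGACATCA 45 to 38 bases before the start, which 2.84% of all windows do. The motif CCAAT, left in lower case, was present in the Jun and Junb windows and in 33.8% of all windows. None of the 6 windows held the full CRE (1.56% of all windows), the AP-1 site TGACTCA or TGAGTCA (4.45%) or a CArG box, the binding sequence of serum response factor (1.48%). The core is contained in the full CRE, and a match or its absence describes these letters in this window only. For Fosl2 and Jund, whose windows lay away from the GENCODE start, an absence says nothing about the bases before that start.

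The libraries held between 23151568 and 28433823 counts. The targeted gene, Ep300, had 1545, 1474 and 2334 normalized counts in Control replicates 1, 2 and 3 and 478, 1350 and 912 in P300-ifKO replicates 1, 2 and 3. Normalized counts are read counts divided by the DESeq2 size factor of the library. Each P300-ifKO library was below each Control library, and P300-ifKO replicate 2 kept the most Ep300 (log2 fold change -0.97, SE 0.33, DESeq2 unadjusted p = 0.00369, adjusted p = 0.991). Ep300 passed the threshold without that library (-1.36, DESeq2 adjusted p = 0.000356), in a fit that called 2.93% of all genes. A larger change without the library that kept the most Ep300 follows from the choice. Ep300 also passed with 1 surrogate variable estimated by sva as a covariate (-0.49, DESeq2 adjusted p = 0.00205). Across all genes, the threshold of an adjusted p of 0.05 was passed by 2 of 32773, Arsi and Esr1, which rose in P300-ifKO mice. The paper attributes both to the driver transgene rather than to loss of p300. Arsi lies on its construct, and the rise of Esr1 is confined to exons used for creERT2. Esr1 had 87.2 to 109 normalized counts in the Control and 2416 to 4217 in the P300-ifKO libraries, and Arsi 24.2 to 38.8 and 168 to 204. Both were thus low in every Control library, which goes with the protocol and not with the driver name in the Control descriptions. Markers of excitatory neurons were abundant in every library, between 139556 and 175784 summed normalized counts over 5 genes. The libraries also differed in a trend with gene length: over 17054 genes, Spearman's rho between exonic length and the deviation of a library from the gene mean was 0.178, 0.163 and 0.413 in the Control replicates and -0.505, 0.417 and -0.275 in the P300-ifKO replicates. P300-ifKO replicate 2 thus stood with the Control libraries, and results for the AP-1 genes are given with and without it where it changes them. Without it, the trend was positive in every Control library and negative in each P300-ifKO library left. Group and length trend therefore cannot be told apart in any value from that fit.

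Basal expression of the family was dominated by the 3 Jun genes. On the TPM scale, which corrects for length, means over the 6 mice were 116 ± 9.58 for Jun, 78.2 ± 10.6 for Junb and 54.6 ± 10.8 for Jund (SD, n = 6 mice). Fosl2 followed at 16.8 ± 4.93 TPM, Fos at 14.0 ± 6.96 TPM, Fosb at 3.47 ± 1.13 TPM and Fosl1 at 0.170 ± 0.131 TPM. The order of neighbouring genes was the same in 6 of 6 libraries for each step except that from Fosl2 to Fos. At those 5 steps the exact two-sided sign-flip permutation test on log2 TPM gave p = 0.03125, the smallest value 6 libraries allow, and 0.0375 after adjustment over the 6 steps. Fosl2 exceeded Fos in 4 of 6 libraries, and this pair did not differ beyond its spread (mean log2 difference 0.35 ± 0.51 SD, exact sign-flip permutation p = 0.1875).

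**Figure D1:**
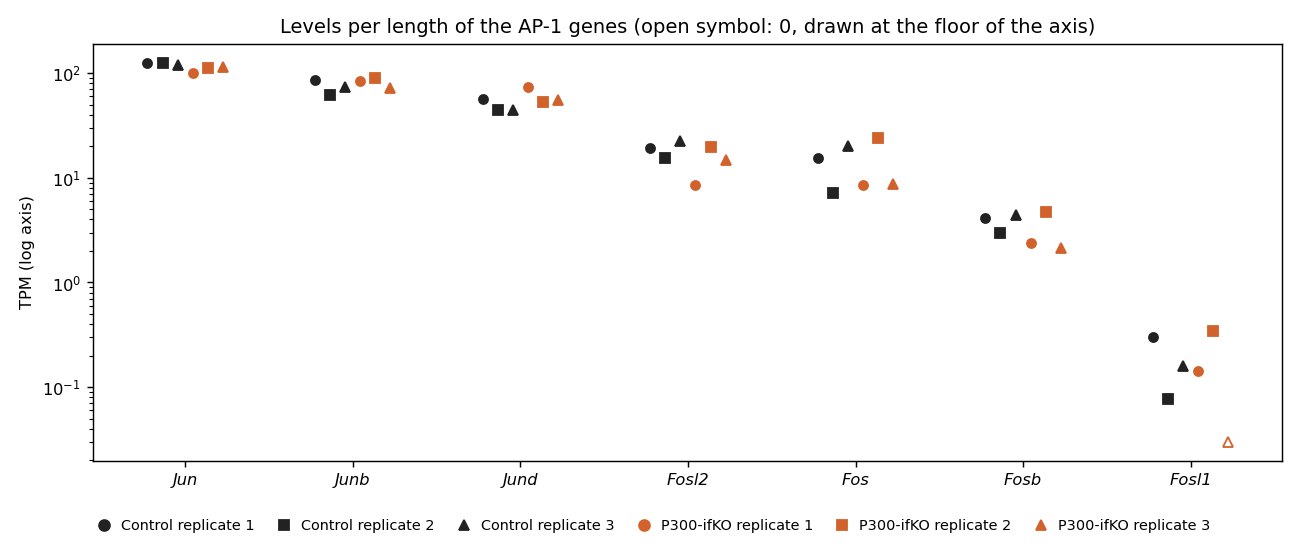
TPM of each AP-1 gene in each mouse, on a log axis, with 1 symbol per library, dark for Control and orange for P300-ifKO. The Jun genes lie between 44.1 and 126 TPM, Fosl2 and Fos share the range from 7.19 to 24.0 TPM, and Fosl1 is below 0.345 TPM in every library, with an open symbol for the library at 0.

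The place of Jund in this order depends on its exons. Jund (ENSMUSG00000071076, chr8:70698949-70700616, plus strand, GRCm38) has 1 exonic stretch of 1668 bases, of which 877 are also exonic in the antisense gene Gm11175, and 48.3% of its 50-base stretches are shared with it. Gm11175 had 0 counts in all 6 libraries, and the strand setting of the counting is not stated, so the treatment of reads from the shared bases is uncertain. With shared bases left out of the length, the mean was 115 TPM for Jund, 125 TPM for Jun and 84.5 TPM for Junb. Jund then stood above Junb in 6 of 6 libraries, and Jun and Jund no longer differed beyond their spread (higher in 5 of 6 libraries, exact sign-flip permutation p = 0.34375).

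The Jun genes together made up most of the AP-1 transcripts in each mouse. The 4 Fos family genes contributed 12.8%, 9.97% and 16.5% of the summed AP-1 TPM in Control replicates 1, 2 and 3. In the P300-ifKO replicates they contributed 7.09%, 16.0% and 9.64%. The groups overlapped, with the lowest share in P300-ifKO replicate 1 and similar high shares in Control replicate 3 and P300-ifKO replicate 2. The summed TPM of the 7 genes ranged from 258 to 307.

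Turning to the comparison of P300-ifKO with Control mice, 0 of the 7 genes passed the threshold, compared with 0.0061% of all genes tested by DESeq2. At an unadjusted p under 0.05 the count was also 0 of 7, compared with 1.32% of all genes, and edgeR called 0 of the 6 genes it tested (0.0117% of all genes). Without P300-ifKO replicate 2 the unadjusted count was 3 of 7 (Fosb, Fosl2 and Jund), in a fit in which 12.8% of all genes were under 0.05. Fos, Fosb, Fosl1, Fosl2 and Jun had log2 fold changes below 0, and Junb and Jund above 0. A test that misses the threshold does not show equal expression, and the intervals below give the range of change that 3 mice per group leave possible.

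Fos (ENSMUSG00000021250, chr12:85473890-85477273, plus strand) encodes c-Fos, the partner most used to mark recently active neurons. It had 236, 113 and 300 normalized counts in Control replicates 1, 2 and 3 and 150, 357 and 137 in the P300-ifKO replicates. The highest mouse was P300-ifKO replicate 2 and the lowest Control replicate 2, and the groups overlapped over nearly their whole range. Mean levels were 216 ± 94.8 in Control and 215 ± 123.4 in P300-ifKO mice (SD, n = 3), a log2 fold change of -0.0095 (SE 0.42, DESeq2 adjusted p = 0.997). The 95% interval of the fold, 0.559 to 1.76, was wide. Fos varied more among mice of a group than most genes: its dispersion, the DESeq2 measure of squared relative spread beyond counting error, was 7.12 times the trend for genes of its level, a ratio above that of 98.9% of the 13613 genes with a mean of at least 50 normalized counts.

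Fosb (ENSMUSG00000003545, chr7:19302696-19310051, minus strand) encodes FosB and its truncated form deltaFosB, which gene counts do not separate. Its normalized counts were 170, 124 and 177 in the Control replicates and 110, 187 and 88.7 in the P300-ifKO replicates. As for Fos, P300-ifKO replicate 2 was the highest of the 6 mice, here with the other P300-ifKO mice at the bottom. The log2 fold change was -0.28 (SE 0.31, DESeq2 adjusted p = 0.991), with an interval of the fold from 0.538 to 1.25. Without P300-ifKO replicate 2 it was -0.66 (DESeq2 unadjusted p = 0.0179, no adjusted p being given), without P300-ifKO replicate 3 -0.076, and with 1 surrogate variable -0.047. Its dispersion ratio was 2.04, above that of 88.3% of genes.

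Fosl1 (ENSMUSG00000024912, chr19:5447547-5455946, plus strand) encodes Fra-1, better known from epithelium and bone. It was at the limit of detection, with 4, 1 and 2 counts in the Control libraries and 2, 5 and 0 in the P300-ifKO libraries. The count of 0 in P300-ifKO replicate 3 allows up to 3 counts, or 2.89 normalized counts, which is counting error only. In addition, 52.63% of the 50-base stretches of Fosl1 are also exonic in Ccdc85b on the other strand, a gene at 1695 to 3329 normalized counts. The fitted log2 fold change of -0.098 (SE 1.42) therefore carries no direction.

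Fosl2 (ENSMUSG00000029135, chr5:32135801-32157842, plus strand) encodes Fra-2, a Fos protein without the C-terminal transactivation domain of c-Fos. Normalized counts were 1231, 1010 and 1386 in the Control replicates and 619, 1213 and 961 in the P300-ifKO replicates. P300-ifKO replicate 1 was the lowest mouse by a wide margin, while P300-ifKO replicate 2 lay within the Control range. Means of 1209 ± 189 and 931 ± 298 (SD, n = 3) gave a log2 fold change of -0.38 (SE 0.25, DESeq2 adjusted p = 0.991). Without P300-ifKO replicate 2 the log2 fold change was -0.61 and passed the threshold (DESeq2 adjusted p = 0.0433). In that fit 2.93% of all genes were called and 1.39% were called lower, and group and length trend cannot be told apart. Without P300-ifKO replicate 1 the log2 fold change was -0.15 (DESeq2 unadjusted p = 0.317), so either library decided the size of this value. With 1 surrogate variable it was -0.066.

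Jun (ENSMUSG00000052684, chr4:95049034-95052222, minus strand) encodes c-Jun, the main target of the Jun N-terminal kinases. It had 2605, 2688 and 2442 normalized counts in the Control replicates and 2374, 2271 and 2423 in the P300-ifKO replicates. Each P300-ifKO mouse was below each Control mouse, the closest pair being 2442 and 2423. Such an arrangement, lower in P300-ifKO mice, was found for 3.15% of the 13613 genes with a mean of at least 50, and among the 6 AP-1 genes at that level for Jun alone. The opposite arrangement was found for 0 of the 6, compared with 3.76% of genes. The log2 fold change was -0.13 (SE 0.11, DESeq2 adjusted p = 0.991), with an interval of the fold from 0.789 to 1.06. Its unadjusted p in DESeq2 was 0.0313 with offsets for gene length and GC content and 0.0378 with 1 surrogate variable, where 2.43% and 0.659% of all genes were under 0.05, and its adjusted p was above the threshold in both. In contrast with Fos, Jun was steady from mouse to mouse: the highest library had 1.18 times the lowest, and 13.5% of genes had a smaller dispersion ratio. The summed markers of astrocytes, 5 genes, did not overlap either (33785 to 35630 in Control, 31903 to 32511 in P300-ifKO libraries), nor did those of microglia, 5 genes (6182 to 6658 and 6829 to 7614). Within these lists the members differed: 3 astrocyte markers were lower and 2 higher, with non-overlapping groups for Slc1a3 alone, and 3 microglial markers were higher and 2 lower, with non-overlapping groups for Csf1r alone. Among markers of other classes, Gad1 of interneurons and Pecam1 of endothelium were lower with non-overlapping groups, while the summed markers of those classes overlapped. No background share was computed for sums of 5 genes. No marker of these lists was at 0, and the part of cell classes in the values of Jun was not tested.

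Junb (ENSMUSG00000052837, chr8:84974484-84978718, minus strand) encodes JunB, an activity-induced partner that is a weaker activator than c-Jun at single AP-1 sites. Normalized counts were 1290, 960 and 1085 in the Control replicates and 1440, 1318 and 1105 in the P300-ifKO replicates. The groups overlapped, and the 2 highest mice were P300-ifKO replicates 1 and 2. The log2 fold change was 0.21 (SE 0.17, DESeq2 adjusted p = 0.991, interval of the fold 0.917 to 1.46), and 0.042 once smooth offsets for gene length and GC content were fitted to each library. Of its 50-base stretches, 5.765% are also exonic in Prdx2 on the plus strand, which had 3633 to 6309 normalized counts.

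Jund encodes JunD, the member least dependent on stimulation. It had 614, 501 and 468 normalized counts in the Control replicates and 916, 556 and 616 in the P300-ifKO replicates. P300-ifKO replicate 1 stood far above the rest, and the other 2 P300-ifKO mice lay in or just above the Control range. Means of 528 ± 76.7 and 696 ± 193 (SD, n = 3) gave the largest log2 fold change of the 7 genes, 0.40 (SE 0.22, DESeq2 unadjusted p = 0.0769, adjusted p = 0.991). Without P300-ifKO replicate 1 it was 0.15, without P300-ifKO replicate 2 0.54 (DESeq2 adjusted p = 0.0692), with length and GC offsets 0.15, and with 1 surrogate variable 0.099. The exonic bases shared with Gm11175 apply here as well.

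**Figure D2:**
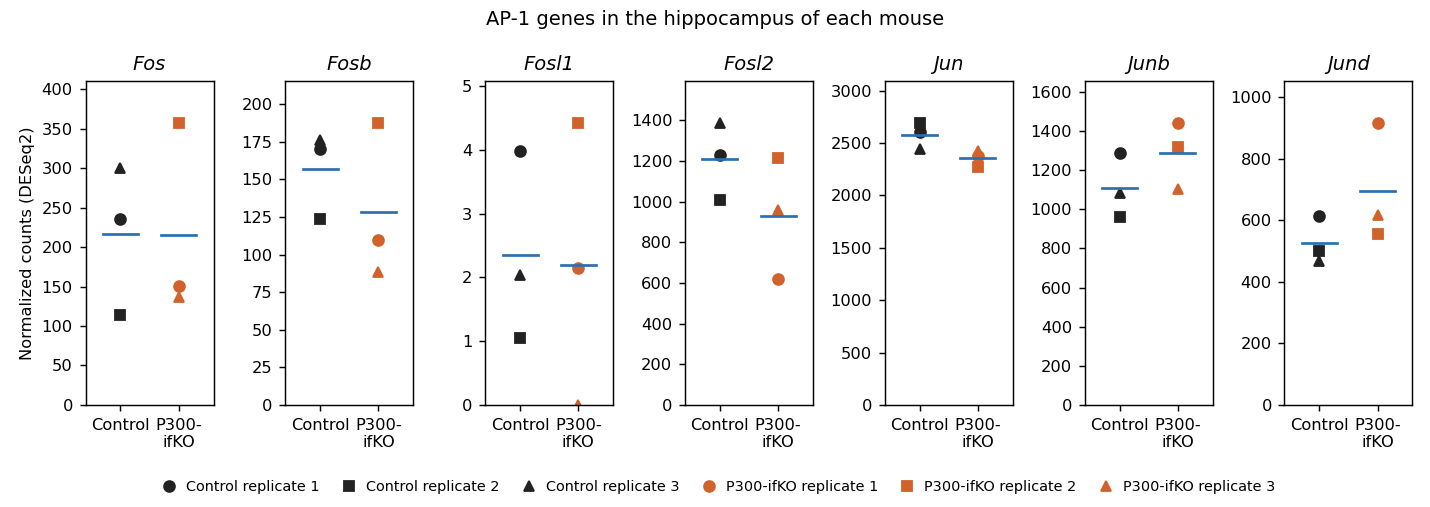
Normalized counts of each AP-1 gene, with a linear axis from 0 for each gene, 1 symbol per mouse and a blue line at the mean of the 3 mice of a group. P300-ifKO replicate 2 (orange square) is the highest mouse for Fos (357) and Fosb (187), and P300-ifKO replicate 1 (orange circle) is the lowest for Fosl2 (619) and the highest for Jund (916).

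**Figure D3:**
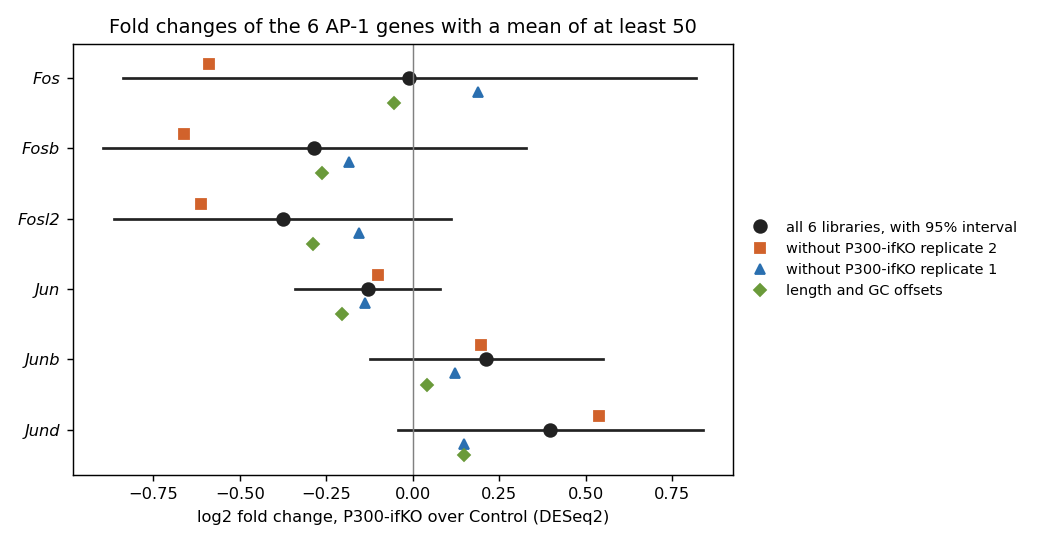
DESeq2 log2 fold changes, P300-ifKO over Control, of the 6 AP-1 genes with a mean of at least 50, with 95% intervals as lines and, as coloured symbols, the values without P300-ifKO replicate 2, without P300-ifKO replicate 1 and with length and GC offsets. Every interval includes 0, and Fos ranges from -0.59 without P300-ifKO replicate 2 to 0.19 without P300-ifKO replicate 1.

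The covariation of the 6 genes with a mean of at least 50 was examined over the 6 libraries, as Pearson's r of log2(normalized count + 1). Of the 15 pairs, 7 were positive, the median r was -0.094, and 0 passed after adjustment over the 15 pairs (smallest adjusted exact permutation p = 0.318). No shared direction of the 6 genes from mouse to mouse was detected with 6 libraries. After length and GC offsets 10 of the 15 pairs were positive, with a median r of 0.31.

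Fos and Fosb, the classic inducible Fos genes, had the highest r of the 15 pairs on this scale. Their r was 0.864 (exact permutation p = 0.0528, adjusted p = 0.318) and Spearman's rho 0.829 (exact permutation p = 0.0583). Without the 2 libraries at the extremes of Fos, r was 0.964, within groups, as deviations from the group means, it was 0.942, and with length and GC offsets 0.869. Other pairs were above it with offsets (Fos and Junb, 0.875), without P300-ifKO replicate 2 (Junb and Jund, 0.864, compared with 0.816) and without P300-ifKO replicate 1 (Fosb and Fosl2, 0.894, and Fos and Fosl2, 0.866, compared with 0.852). Among all 13613 genes, 0.808% had at least this r to Fos and 1.16% to Fosb. Both genes were above their means in Control replicates 1 and 3 and P300-ifKO replicate 2, and below them in the other 3 mice.

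Fosl2 and Jund moved in opposite directions, with r = -0.871 (exact permutation p = 0.0431, adjusted p = 0.318) and rho = -0.771 (exact permutation p = 0.103). The relation rested on P300-ifKO replicate 1 and Control replicate 3, without which r was 0.173. Both genes were correlated with the length trend of the libraries. For Fosl2, with 9680 exonic bases the longest of the 7, r with the trend was 0.914 (exact permutation p = 0.00833, adjusted over 6 genes 0.0389), and for Jund, the shortest at 1668 bases, -0.850 (p = 0.0194, adjusted 0.0389, exact permutation). Fosb, with 6243 bases, had r = 0.858 (exact permutation p = 0.0181, adjusted 0.0389). Leaving out the 2 libraries farthest from the median of the trend, r was 0.689 for Fosl2, 0.735 for Fosb and -0.370 for Jund, so that the relation of Jund rested on those libraries. By rank, rho was 0.829 for Fosl2, 0.943 for Fosb and -0.714 for Jund, and 0 of the 6 genes passed after adjustment (smallest adjusted exact permutation p = 0.1). Such profiles were common for Fosl2 and Jund, since 28.9% and 26.3% of all genes had an r of at least 0.8 to them, compared with 1.78% for Fos, 3.38% for Fosb, 1.49% for Junb and 0.595% for Jun. Length and GC offsets did not remove the relation to the trend. With them r was 0.882 for Fosl2, 0.835 for Fosb and -0.694 for Jund, and for Fos 0.763, compared with 0.689 without offsets. For Jun r was 0.641 with offsets and 0.087 without, and for Junb 0.491 with and -0.324 without. Values with offsets thus still carry a trend that these genes share. The part of the length trend in the group values of these genes was not tested.

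Junb had r = 0.754 with Jund (exact permutation p = 0.0722, rho = 0.714) and r = 0.373 with Fos (exact permutation p = 0.464, rho = 0.429), and neither passed after adjustment. Without the 2 libraries at the extremes of Junb, its r with Jund was 0.412. With length and GC offsets the pair of Junb and Jund had r = 0.241 and that of Junb and Fos r = 0.875. Jun, whose spread was smallest, had r = -0.518 with Fos and -0.594 with Junb (exact permutation p = 0.304 and 0.219).

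Across all 13612 other genes with a mean of at least 50, the gene most like Fos was Egr1, a zinc finger immediate early gene, with r = 0.9925 over the 6 libraries and 0.994 with length and GC offsets. Egr1 had 2365, 1641 and 2604 normalized counts in the Control replicates and 1929, 2818 and 1930 in the P300-ifKO replicates, so the order of mice was nearly that of Fos. Of 11 other immediate early genes at that level, 3 had an r of at least 0.8 to Fos: Egr1, Nr4a1 (0.893), an orphan nuclear receptor gene, and Arc (0.964), which encodes a synaptic protein. The count was 3 of 11 for Fosb (Egr1, Nr4a1 and Npas4) and for Fosl2 (Egr3, Nr4a2 and Nr4a3), 2 for Junb (Ier2 and Dusp1) and 0 for Jun and Jund, to be read beside the shares of all genes given above. Without offsets, 2 of the 11 had an r of at most -0.8 to Jund, as did 26.9% of all genes. With length and GC offsets the counts at 0.8 or above were 6 for Fos, 4 for Fosb, 2 for Fosl2, 5 for Junb and 0 for Jun and Jund. The share of all genes was not computed with offsets, so a change in these counts cannot be read as closer likeness. These libraries share depth and length trends between genes, so the likeness is a description.

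The genes most like Fosb were Pabpc4 (r = 0.991), D130017N08Rik and Otud1, for Fosl2 Amotl2 (0.999), Fhod1 and Cacna2d2, and for Jund Lxn (0.997), Vps16 and Klhdc9. For Junb they were Gm3294 (0.990), A330102I10Rik and Gm266, and for Jun 8030453O22Rik (0.988), Dnajc21 and Gm32391. After Egr1, Fos was followed by Nrg4 (0.984) and Cgn (0.970).

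**Figure D4:**
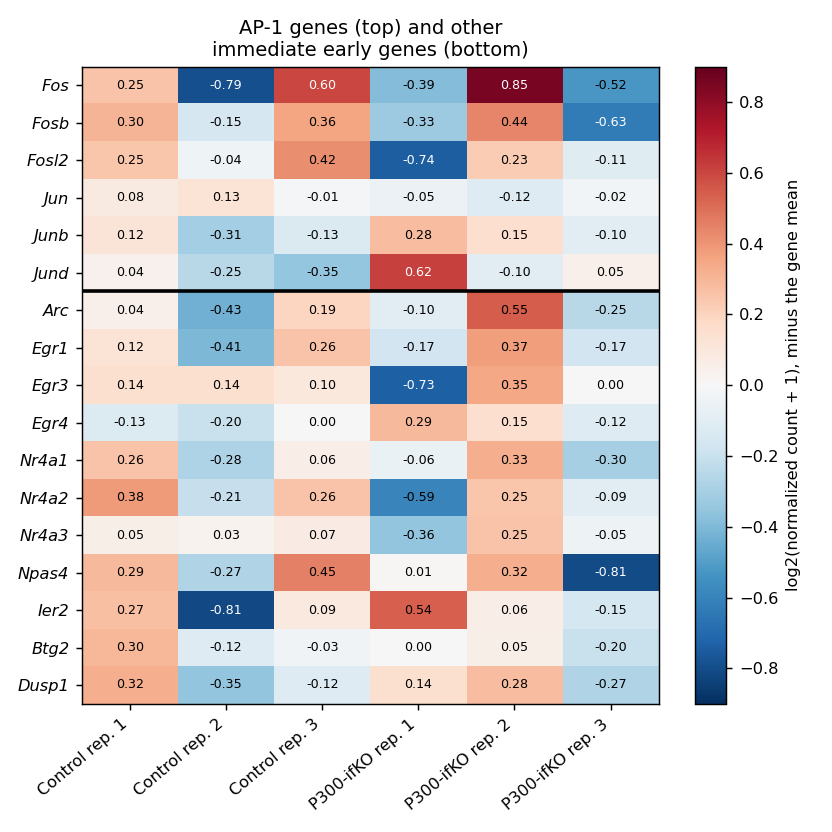
Deviation of each gene from its own mean over the 6 libraries, in log2(normalized count + 1), for 6 AP-1 genes above the line and 11 other immediate early genes below it, red for above and blue for below the mean. Fos spans -0.79 in Control replicate 2 to 0.85 in P300-ifKO replicate 2, Arc and Egr1 have the same extremes at smaller size, and Jun stays between -0.12 and 0.13.

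**Figure D5:**
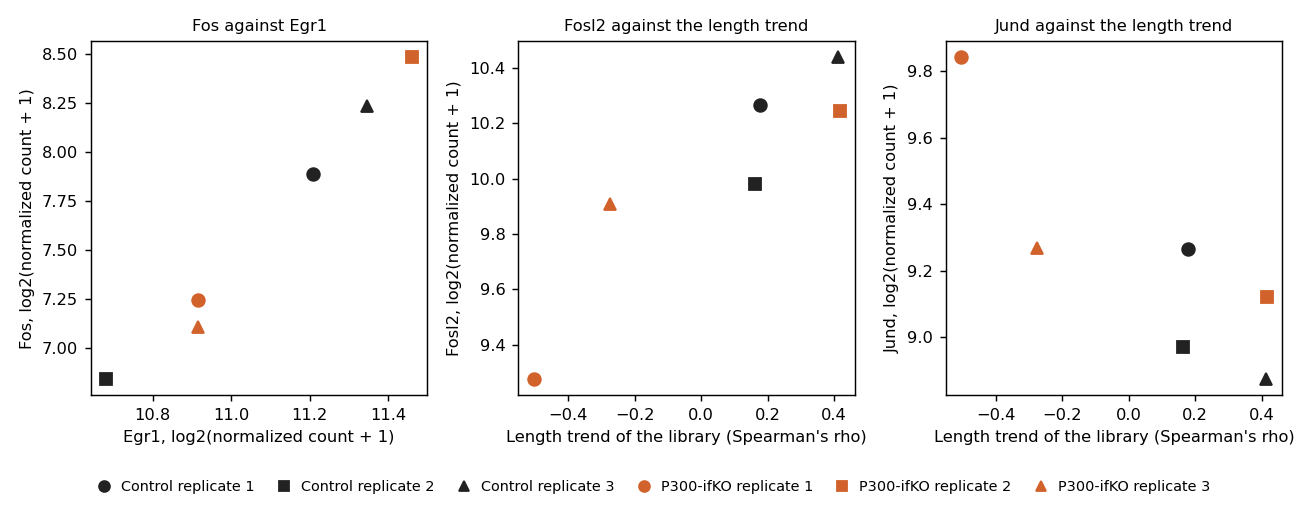
Fos against Egr1, and Fosl2 and Jund against the length trend of each library, all gene values in log2(normalized count + 1), with 1 symbol per mouse. Fos rises with Egr1 in mice of both groups (r = 0.9925), while Fosl2 rises (r = 0.914) and Jund falls (r = -0.850) with the trend, P300-ifKO replicate 1 being at the far left of both.

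The genes around AP-1 were read from lists, and 0 genes of each list passed the threshold in DESeq2 or edgeR, nor did any have an unadjusted DESeq2 p under 0.05. The median log2 fold change of the 13613 genes with a mean of at least 50 was -0.0043, and list medians below are over members at that level. Of the 11 bZIP partners, proteins of the ATF, BATF, JDP and small Maf families that can pair with Fos or Jun proteins, 6 were at that level, 4 of them lower and 2 higher. Their median was -0.12, with the extremes at Atf7 (-0.19) and Jdp2 (0.28). Over all 11 the sign was the opposite, with 7 higher, 4 lower and a median of 0.15. The low genes Batf2 (1.05 to 3.06 normalized counts in Control, 5.30 to 10.7 in P300-ifKO libraries) and Batf3 (13.7 to 15.3 and 17.7 to 26.0) did not overlap between groups. This pair was named after its values were seen. The share of all genes below a mean of 50 with such groups was not computed, so the pair has no background to be read against. Of the 16 upstream kinases and factors, which carry activity to the Fos and Jun promoters, 10 were lower and 6 higher (median -0.11). Their extremes were the kinase genes Rps6ka3 (-0.29) and Mapk3 (0.098).

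Genes of turnover, which encode ubiquitin ligase components and RNA-binding proteins that shorten the life of AP-1 proteins or transcripts, counted 2 higher and 5 lower of 7. Their median was -0.17, between Zfp36l1 (-0.23) and Zfp36 (0.30). Of 9 AP-1 targets at that level, 6 were lower and 3 higher (median -0.047), from Ccnd1 (-0.46), the gene for cyclin D1, to Cdk5 (0.32), a neuronal kinase gene. Ccnd1 (-0.71, DESeq2 adjusted p = 0.0225) and Gria2 (-0.56, DESeq2 adjusted p = 0.0480), an AMPA receptor subunit gene, passed the threshold without P300-ifKO replicate 2, in the fit that called 2.93% of all genes. The 11 other immediate early genes, 5 higher and 6 lower, had a median of -0.017, between Npas4 (-0.27) and Ier2 (0.26). No gene of these 5 lists with a mean of at least 50 had groups that did not overlap, compared with 6.91% of all genes at that level.

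The list medians depended on single libraries. Without P300-ifKO replicate 2 the median was -0.18 for bZIP partners, -0.17 for upstream genes, -0.32 for turnover, 0.00047 for targets and -0.19 for other immediate early genes. Without P300-ifKO replicate 1 the medians in the same order were -0.039, -0.052, -0.016, -0.11 and 0.048.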

How the data were processed

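The deposited table held raw read counts per gene, which the authors made from single-end 50-base reads: adapters were trimmed, reads were aligned to GRCm38 with STAR (2.6.1), those above a mapping quality of 10 were kept, and reads on exons of Ensembl release 99 were counted with Rsubread. The strand setting is not given in the sources used here. Unused per-sample columns numbered 0. Exonic lengths are those deposited beside the counts. Of the genes, 99.41% matched GENCODE M21 for symbols and coordinates.

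The members and lists were chosen with earlier results of these data known. Groups came from the sample titles. DESeq2 (1.42.0, R 4.3.3) fitted all genes with a two-sided Wald test, no covariate and Benjamini-Hochberg adjustment at 0.05. Beside it stood edgeR (4.0.16), limma (3.58.1) voom, sva (3.50.0), length and GC offsets from mgcv (1.9.3), a block for the replicate number, and fits that left out 1 library each. Correlations used a pseudocount of 1, TPM tests 0.01. Named were the 7 genes, checks, list extremes among genes with a mean of at least 50, genes that gained a call and the 3 genes most like each member. Immediate early genes with an r of at least 0.8 to a member were named after their values were seen. Scripts were tested on simulated data. Summed marker levels of 8 cell classes were computed, and those of interneurons, oligodendrocytes, endothelium, choroid plexus and blood overlapped between groups.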

Additional observations from a re-analysis of the deposited data

How the results depend on the processing

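With 3 mice per group, the precision of the values is limited by the spread between mice rather than by depth, except for Fosl1 and Jun. The dispersion of Jun itself (0.00135) was far below the trend for genes of its level (0.0209). DESeq2 draws such an estimate toward the trend, so the interval of Jun also rests on other genes. The log2 fold change of Fos changed sign with TMM factors (0.0018) and with 1 surrogate variable (0.42), and leaving out 1 library moved it between -0.59 and 0.30. That of Fosl1 changed sign with 1 surrogate variable (0.11), and lay between -1.16 and 0.51 when 1 library was left out. The log2 fold changes of Fosb, Fosl2, Jun, Junb and Jund kept their sign under every alternative run, but with 1 surrogate variable those of Fosb (-0.047), Fosl2 (-0.066) and Jund (0.099) were much smaller. Leaving out 1 library, Fosl2 lay between -0.61 and -0.15, and it passed the threshold only without P300-ifKO replicate 2. The count of AP-1 genes called then ranged from 0 to 1 and that of all genes from 2 to 938, the highest being without P300-ifKO replicate 2.

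Between same-numbered mice, the deviations had r = 0.37, -0.37 and 0.16 over 13614 genes. These values cannot decide whether the numbers pair the mice, because the libraries also differed in the length trend. The original library labels give Control and P300-ifKO mice the same non-consecutive numbers, so pairs by litter or batch are not excluded. With the replicate number as a block, 4 genes of all genes and 0 of the AP-1 genes were called. Leaving shared exonic bases out of the length, an alternative chosen after seeing the data, put 1 pair of AP-1 genes in another order, and the cause is the shorter length of Jund by construction.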
